A study of Mus musculus with 21 samples.

Results

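T-only distal peaks inside genes are sites where the transcription factor T (brachyury) was detected by ChIP-seq in cultured notochord progenitor-like cells, without an overlapping Foxa2 peak. They were selected on the peak calls of 1 T and 1 Foxa2 library and on their positions: a T peak was kept when it shared not 1 bp with a Foxa2 peak of the same kind of culture, and when its summit lay more than 5000 bp from the 5′ end of every protein-coding gene and inside the body of at least 1 protein-coding gene. Of the 6875 T peaks, 2142 (31.2%) met this rule and are called members below. They made up 46.5% of the T-only distal peaks, the other 2461 lying between genes. Positions refer to the mouse genome build mm10 and gene bodies to GENCODE vM21.

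T is a T-box transcription factor of the primitive streak, the mesoderm progenitors at the caudal end and the notochord, the midline rod that signals to the neural tube and the somites. T-box proteins bind short DNA words related to AGGTGTGA, and often bind pairs of such words. Foxa2 is a forkhead factor expressed in the notochord, the floor plate and the endoderm. A binding site deep inside an intron may act on the gene that hosts it, on another gene, or on none, and binding data alone do not tell these apart.

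The series asks which enhancers are active in the mouse notochord, using RNA-seq, ATAC-seq and ChIP-seq in 21 samples, of which 11 were used here. Both peak lists come from bulk, unsorted day 4 cultures of F1G4 (C57BL/6N x SV129) mES cells with 3 insertions. A T::H2B-mCherry-T2A-irTA BAC drives the Dox-dependent activator from T regulatory sequences, TRE::Foxa2-IRES-EGFP sits in the Rosa26 locus, and a Noto::H2B-mTurquoise BAC reports *Noto*. These cultures received bFGF and CHIR99021 and, from day 2, 1 ng/ml doxycycline (Dox), so that cells expressing T switched on the Foxa2 transgene. The deposited peaks are therefore those of an enriched but mixed population, termed NotoPdiff, in which Foxa2 was overexpressed.

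RNA-seq of the same cell line covered sorted Noto+/T+ cells on day 4 with Dox (NotoPdiff), sorted T+/Noto- cells on day 4 without Dox (MPdiff, mesoderm progenitors) and sorted T+/Noto- cells on day 3 (NMPdiff, neuromesodermal progenitors). Embryonic cells came from pooled E8.5 and E9.5 embryos grown from F1G4 mES cells with T::H2B-Venus, Noto::H2B-mCherry and Foxa2::H2B-mTurquoise BAC reporters. At each stage, notochord progenitors (NotoPs, Noto+/T+/Foxa2+) and mesoderm progenitors (MPs, T+/Noto-/Foxa2-) were sorted from the caudal end and notochord cells (T+/Noto+/Foxa2+) from the trunk. Each condition had 1 library, so no difference below has a replicate check and no test was made. Ranges given after a share in parentheses are 95% Wilson intervals, which cover counting error only.

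The sorted identities were checked with fixed markers. All 6 notochord markers (*Noto*, *Shh*, *T*, *Foxa2*, *Chrd* and *Nog*) reached 1 FPKM in NotoPdiff and in NotoPs of both stages, whereas *Noto* was listed at 0 in MPdiff and in MPs of both stages. *T* itself was at 375 FPKM in NotoPdiff, 25.8 in MPdiff and 406 in NMPdiff cells. Of 5 mesoderm progenitor markers, 4 reached 1 FPKM in NotoPdiff and 5 in MPdiff cells, with summed levels of 37.4 and 82.4 FPKM. In E8.5 embryos all 5 reached it in NotoPs as in MPs, with sums of 70.8 and 150.5 FPKM. In E9.5 embryos 3 reached it in NotoPs and 5 in MPs, with sums of 76.6 and 229 FPKM. Mesoderm marker RNA was thus lower in the NotoP and NotoPdiff libraries, but not absent. Of 8 gut endoderm markers, 4 reached 1 FPKM in NotoPdiff and 4 in MPdiff cells, with summed levels of 167 and 14.5 FPKM, and *Ttr* was listed at 0 in both, *Apoa1* in NotoPdiff and *Afp* in MPdiff cells. In embryos their sum was 69.1 FPKM in NotoPs and 117 in MPs at E8.5, and 32.1 and 3.90 at E9.5, with *Ttr*, *Afp* and *Apoa1* listed at 0 in NotoPs of both stages. In the trunk notochord the gut endoderm sum was 123 FPKM at E8.5 and 161 at E9.5. All 6 notochord markers reached 1 FPKM in the trunk at E8.5 and 5 at E9.5, where *Chrd* was listed at 0. The summed level of 8 neural markers, *Pax3* among them, was 92.5 and 57.0 FPKM in the trunk. It was 21.2 and 20.2 in NotoPs and 11.7 and 7.97 in MPs. The part of mesoderm, endoderm or neural RNA in the differences below was not tested. The MP library of E8.5 had the fewest cells and mapped reads of the embryonic libraries. It listed 58.1% of the 23983 genes at 0, more than any other library.

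Around the summits, T-box words were far more frequent than in sequence 10 kb away, both singly and in pairs. A pair here consists of TNNCAC followed, after a gap, by GTGNNA, so that it reads alike on both strands. This form and the gap were chosen after the words of 6 bases near the summits had been counted. Of the 12 most enriched members with a gap of 4 bases outside exons, picked after their values were seen, 11 are shown to let the pair be seen in its context. Each excerpt is 32 bases of the mm10 plus strand, named by its host gene, with the 2 words of the pair in capitals.

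Grik3, chr4:125596190-125596221: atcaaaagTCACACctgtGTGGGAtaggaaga
Phactr3, chr2:178250301-178250332: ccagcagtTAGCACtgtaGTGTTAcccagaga
Trabd2b, chr4:114484119-114484150: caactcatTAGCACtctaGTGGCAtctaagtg
Chst7, chrX:20068495-20068526: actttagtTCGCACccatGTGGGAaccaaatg
Slc19a1, chr10:77040757-77040788: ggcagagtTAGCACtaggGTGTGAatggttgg
Mettl24, chr10:40809399-40809430: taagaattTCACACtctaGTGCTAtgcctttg
Hdac9, chr12:34155960-34155991: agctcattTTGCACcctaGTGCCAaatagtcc
Kcnh1, chr1:192340565-192340596: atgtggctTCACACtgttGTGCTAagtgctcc
Cd160, chr3:96819438-96819469: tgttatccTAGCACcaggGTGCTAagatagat
Plcxd3, chr15:4529799-4529830: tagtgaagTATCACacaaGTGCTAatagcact
Ttll5, chr12:85941683-85941714: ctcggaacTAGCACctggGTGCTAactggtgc

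In these 11 members the centre of the pair lay at most 39.5 bp from the summit. The fold enrichment over the local background ran from 24.1 in *Grik3*, which encodes a kainate-type glutamate receptor subunit, down to 18.03 in *Ttll5*, a tubulin glutamylase gene. The distance to the nearest protein-coding 5′ end ranged from 8.53 kb in *Slc19a1*, a folate transporter gene, to 198 kb in *Hdac9*, a histone deacetylase gene. The letters of the gap were not the same throughout, although *Trabd2b* and *Mettl24* shared them, as did *Slc19a1* and *Hdac9* when read on opposite strands. Over all 184 pairs with this gap found in the members, the most frequent gap letters, read on either strand, were TAGA with 9.78% and TAAA with 9.24%.

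Within 50 bp of the summit, the pair with a gap of 4 bases was found in 181 members (8.45%, 7.35 to 9.70). In windows of the same length 10 kb to either side, it occurred in 2 of 4283 (0.0467%, 0.0128 to 0.17). The spacing was narrow: a gap of 5 bases was found in 0.233% of members and a gap of 3 bases in 0.420%, while a gap of 6 bases was found in 89 members (4.16%) against 0.140% of the windows 10 kb away. T-only peaks between genes had the 4-base gap about as often (8.37%) and the 6-base gap in 5.73%. Among Foxa2-only distal peaks inside genes the 4-base gap was seen in 0.168%. Of the 184 pairs, 147 (79.9%) had their centre within 20 bp of the summit, with a median distance of 8 bp.

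**Figure D1:**
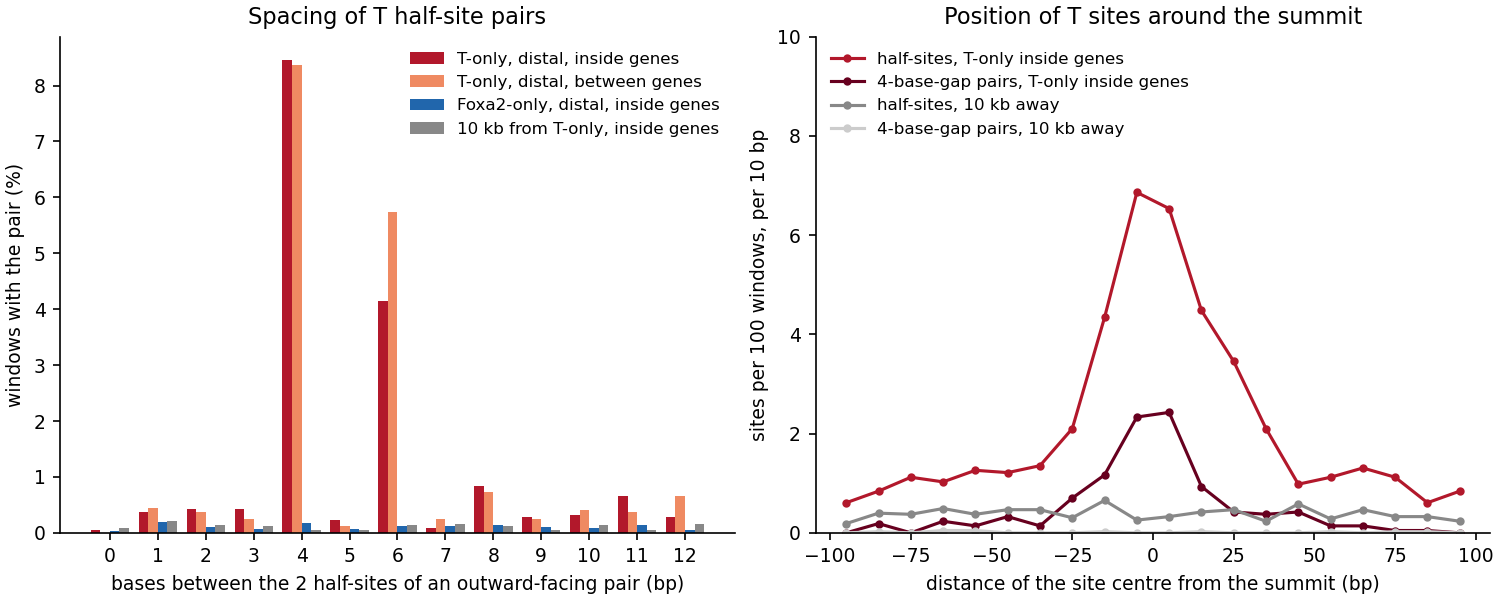
Left, percentage of windows, reaching 50 bp to either side of a summit or of a position 10 kb away, holding an outward-facing pair of T-box words (TNNCAC, gap, GTGNNA) by the number of bases in the gap, in 4 sets of windows. Right, number of single 7-base words and of pairs with a 4-base gap in each 10-bp bin per 100 windows, by distance from the peak summit, in members and 10 kb away. Gaps of 4 and 6 bases stand out in both classes of T-only peaks, at 8.45% and 4.16% inside genes, and the words gather at the summit.

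Single T-box words were more common than pairs. The 4 words of 7 bases below, also chosen after the word counts, were searched on both strands, and at least 1 of the 4 occurred in 624 members (29.1%, 27.2 to 31.1) against 3.95% of the windows 10 kb away. GTGTGAA occurred in 322 members (15.0%), GTGCTAA in 212 (9.90%), GTGTTAA in 115 (5.37%) and GTGCGAA in 15 (0.700%). The corresponding shares 10 kb away were 1.56%, 0.794%, 1.40% and 0.210%. Inside the pairs GTGTGA was likewise the most frequent of the possible words, making up 27.2% of them, followed by GTGCTA (16.8%) and GTGTTA (12.8%). The full 8-base word AGGTGTGA was rare, with 73 members (3.41%, 2.72 to 4.26) against 0.397% 10 kb away. Pairs and single words overlap in part. At least 1 of the 4 words or a pair with a gap of 4 or 6 bases was present in 724 members (33.8%), and neither was present in 1418 (66.2%).

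Longer excerpts, reaching 50 bp to either side of the summit, show single words in hosts described below. The strongest members of *Lmx1a*, *Nav2* and *Snx29* each hold 1 of the 4 words, and 1 further member of *Snx29* and 1 of *Auts2* hold the 8-base word. Among the 10 hosts considered for such excerpts, these were the 2 with an 8-base word. The word is in capitals, on the strand where the plus strand shows it.

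Lmx1a, chr1:167740827-167740927: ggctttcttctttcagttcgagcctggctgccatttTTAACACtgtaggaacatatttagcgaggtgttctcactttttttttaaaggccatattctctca
Nav2, chr7:49519384-49519484: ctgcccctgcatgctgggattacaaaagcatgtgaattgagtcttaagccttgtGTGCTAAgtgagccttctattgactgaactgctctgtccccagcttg
Snx29, chr16:11490935-11491035: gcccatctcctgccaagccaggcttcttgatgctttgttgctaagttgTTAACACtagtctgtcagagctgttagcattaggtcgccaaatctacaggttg
Snx29, chr16:11642853-11642953: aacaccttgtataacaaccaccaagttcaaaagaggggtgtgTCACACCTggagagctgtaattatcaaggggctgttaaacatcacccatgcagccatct
Auts2, chr5:132528969-132529069: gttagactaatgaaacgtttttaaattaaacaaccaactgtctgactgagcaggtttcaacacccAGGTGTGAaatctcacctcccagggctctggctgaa

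Members with stronger enrichment held T-box words more often. When the members were divided by fold enrichment, from 2.22 to 28.7, into 4 groups of nearly equal size, the pair with a 4-base gap was present in 4.08% (2.71 to 6.10), 5.99%, 9.38% and 14.4% (11.6 to 17.6) of them from the weakest to the strongest group. The share with a word or a pair was 24.9% (21.4 to 28.7) in the weakest and 44.2% (40.1 to 48.4) in the strongest group, intervals that do not overlap. Read the other way, the median fold enrichment was 9.17 with a 4-base-gap pair, 8.14 with a 6-base-gap pair and none of 4, 7.57 with a single word and 7.08 with none of these.

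**Figure D2:**
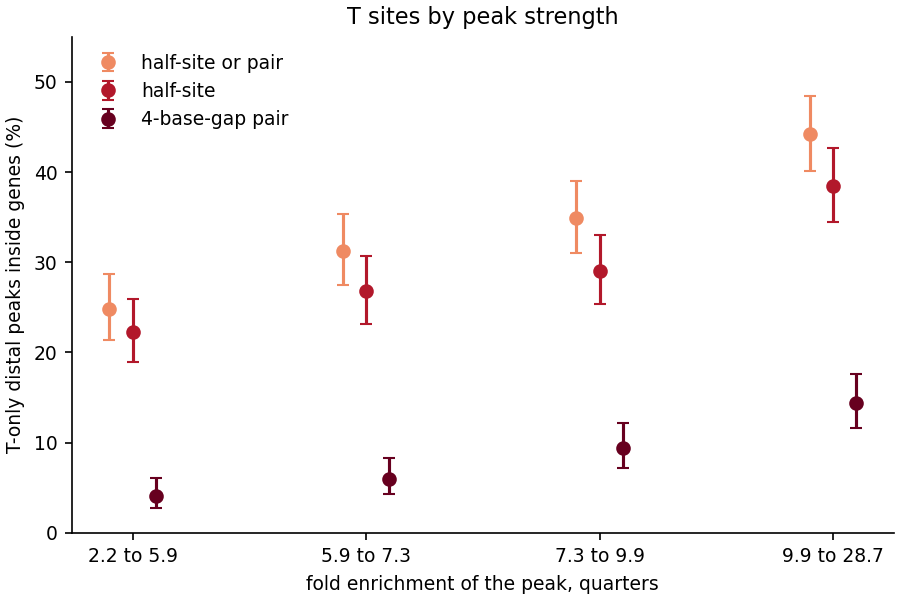
Percentage of members with T-box words within 50 bp of the summit, in 4 groups by the fold enrichment of the peak. Points are shares of 533 to 539 members and bars are 95% Wilson intervals. All 3 kinds of word or pair rise from the weakest to the strongest group, the 4-base-gap pair from 4.08% to 14.4%.

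Forkhead words, TGTTTAC or TGTTTGC, were present in 252 members (11.8%, 10.5 to 13.2), although no Foxa2 peak overlapped them. This exceeded the 3.27% (2.78 to 3.84) of windows 10 kb away and was below the 23.1% of T peaks shared with Foxa2 inside genes and the 17.4% of Foxa2-only peaks. By distance to the nearest Foxa2 peak the intervals overlapped, with 14.9% (9.08 to 23.5) of the 94 members within 1 kb of one and 10.4% (8.19 to 13.1) of the 597 members more than 50 kb away. Both a forkhead word and a T-box word or pair occurred in 82 members (3.83%). Words of TCF/LEF and Sox factors, CTTTGAT or CTTTGTT, were found in 9.43% of members against 4.53% 10 kb away. Shares for Cdx words (TTTATGG or TTTATTG, 4.62% against 3.62%), the GATA word TGATAA (4.72% against 5.63%) and the E-box CACGTG (1.26% against 1.12%) lay closer to those of the distant windows. A match of letters does not show that a factor was bound. The members' windows had a median GC content of 46.5%, against 44.6% 10 kb away, and 10.9% of summits lay in repeat-masked sequence, compared with 28.1% of the distal gene-body bases and 41.7% of Foxa2-only summits.

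The enrichment of the members was moderate. Their fold enrichment had a median of 7.31 and quartiles of 5.86 and 9.86, compared with medians of 7.91 for T-only peaks between genes, 5.87 for T-only promoter peaks and 7.82 for shared peaks inside genes. An enrichment of 10-fold or more was reached by 512 members (23.9%) and by 30.0% of the T-only peaks between genes. A q-value of at most 0.001 was met by 2044 members (95.4%). These values come from the measurement that chose the members and are given as a description.

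The strongest member of all, at 28.7-fold, lay in *5730522E02Rik*, 89.6 kb from its 5′ end. It was followed by members in *Tbc1d4* (28.5-fold), which encodes a Rab GTPase-activating protein, *Sacm1l* (28.0-fold), a phosphoinositide phosphatase gene, *Lmx1a* (28.0-fold), a LIM homeodomain factor gene, and *Ddr2* (26.3-fold), a collagen receptor gene. The next 5 were in *Slc7a11*, a cystine transporter gene, the overlapping genes *Cdan1* and *Ttbk2*, *Socs5*, a suppressor of cytokine signalling, *Primpol*, a primase-polymerase gene, and *Ccser1*, at 25.3- to 25.7-fold. A T-box word or pair was present in 7 of these 10, the exceptions being the members in *5730522E02Rik*, *Tbc1d4* and *Sacm1l*. None of the 10 held the 4-base-gap pair, and that of *Socs5* held a pair with a 6-base gap. The GENCODE model of *Slc7a11* extends over 551 kb and the RefSeq model over 134 kb, and the member falls outside the latter. The closest protein-coding 5′ end to it was that of *Pcdh18*, at 269 kb. *Cdan1* likewise spans 134 kb in GENCODE but 15.4 kb in RefSeq, where it holds 0 of its 2 members, while *Ttbk2* holds 2.

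The members were nearly all intronic. An intron of the annotated transcripts held 2039 summits (95.2%, 94.2 to 96.0), a UTR 69 (3.22%) and coding sequence 34 (1.59%, 1.14 to 2.21). The distal gene-body bases where a member could lie are 94.2% intron, 2.99% UTR and 2.81% coding sequence, so coding sequence held fewer members than its length, while introns held about their share. Of the 1846 members in introns of the transcript with the longest coding sequence of a single host, 490 (26.5%) lay in intron 1, which makes up 23.0% of the distal intron length of the hosts. When gene bodies were cut into 5 parts of equal length, the part at the 5′ end held 15.9% of members and 18.1% of the distal length, and the next part 22.5% and 20.5%. The other 3 parts held 19.7% to 21.3% of members each.

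The distance to the nearest protein-coding 5′ end had a median of 55.5 kb and quartiles of 21.1 and 124 kb. It exceeded 100 kb in 677 members (31.6%) and lay between 5 and 10 kb in 187 (8.73%). This nearest 5′ end belonged to a host in 1521 members (71.0%) and to another gene in 621. With the 5′ ends of all annotated genes, non-coding ones included, the share nearest to the host fell to 29.6%. At the boundary of the rule, the closest members lay at 5033 bp in *Ndufaf2*, 5084 bp in *Pspc1* and 5130 bp in *Chst2*, and the closest T-only peaks left out at 4995 bp in *Mettl7a3*, 4938 bp in *Cyp11a1* and 4918 bp in *Npc2*. The nearest Foxa2 peak was a median of 25.3 kb away, with 539 members (25.2%) within 10 kb and 94 (4.39%) within 1 kb of one. The shortest gaps were 6 bp in *Tgfbr3*, 10 bp in *Sobp* and 13 bp in *Cntnap2*, while peaks in *Dnah11*, *Gm42906* and *Foxp1* were left out for overlaps of 24, 25 and 28 bp.

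Members occurred at 2.31 per Mb of distal gene body and T-only peaks at 1.62 per Mb between genes. On the X chromosome, present once in this male line, 30 members gave 0.742 per Mb, compared with 2.38 per Mb on the autosomes. Between genes the densities were 0.595 and 1.81 per Mb. Among autosomes the density inside genes was lowest on chromosome 8 (1.90 per Mb) and highest on chromosome 18 (3.06 per Mb).

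The 2142 members had 1606 host genes, which is 9.29% of the 17287 protein-coding genes with any distal gene body. A single host was assigned to 2101 members, 2 hosts to 40 members and 17 hosts to 1 member. Of the hosts, 1241 (77.3%) held 1 member, 234 held 2 and 131 held at least 3, of which 24 held 5 or more. Members that shared a host with another numbered 949 (44.3%). The hosts were long, with a median length of 127 kb against 25.7 kb for all genes that could hold a member. Of genes with up to 10 kb of distal body 0.612% were hosts, of those with 50 to 100 kb 14.4%, and of those above 400 kb 62.8%. The density of members changed less, from 1.44 per Mb in the shortest class to 2.76 per Mb at 100 to 200 kb and 1.94 per Mb above 400 kb.

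**Figure D3:**
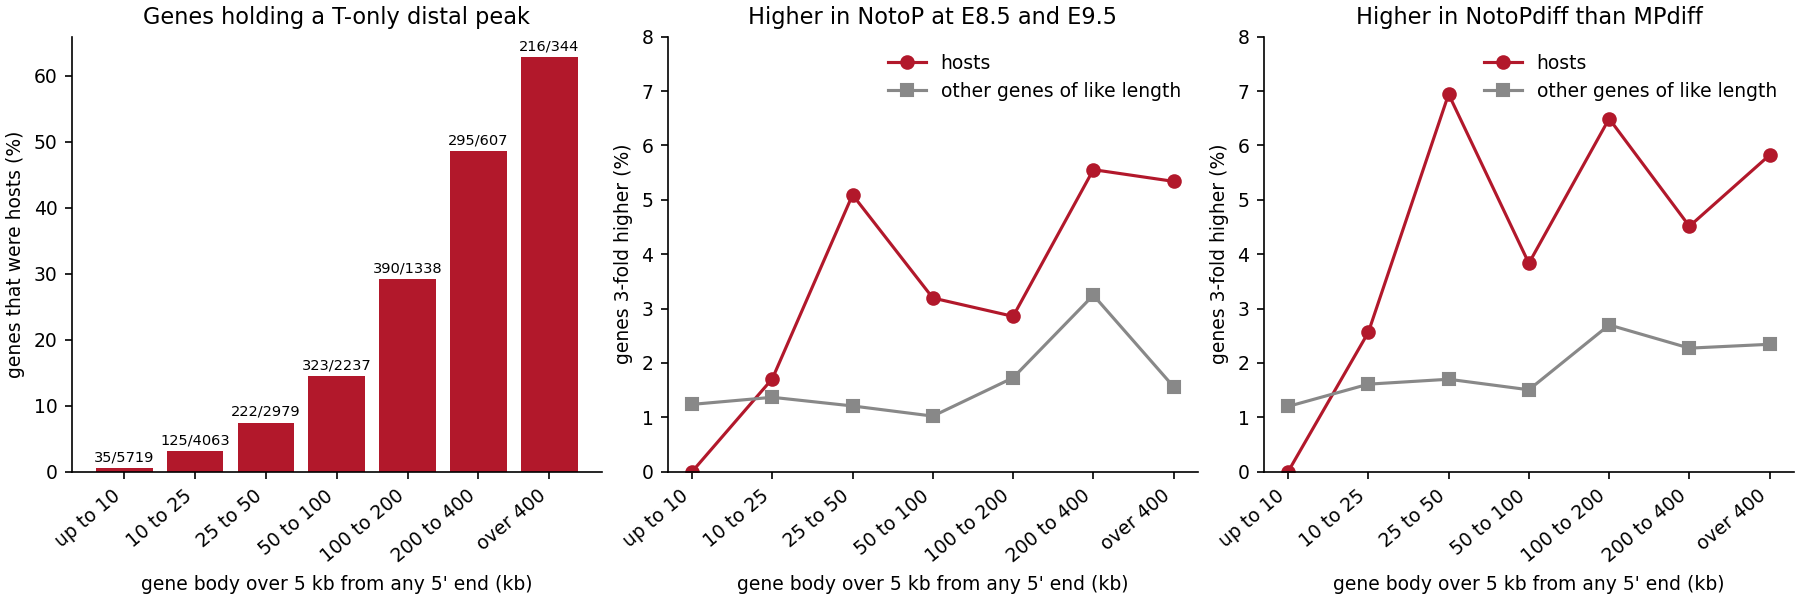
Left, percentage of protein-coding genes that hold a member, by the length of gene body more than 5 kb from any 5′ end, with hosts and genes counted above each bar. Middle and right, percentage of hosts and of other genes of the same length class that were 3-fold higher in NotoPs at both stages, and in NotoPdiff cells. Hosts lie above the other genes in 6 of 7 classes in both plots, while none of the 35 hosts of the shortest class was called.

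The genes with most members were large. *Fgfr2*, a fibroblast growth factor receptor gene, held 9 by the GENCODE model of 2961 kb, but only 1 lay inside the RefSeq gene of 104 kb, and its model overlaps 30 other protein-coding genes. *Nav2*, which encodes a neuron navigator protein of the cytoskeleton, held 8 members of 5.83- to 16.2-fold, between 212 and 614 kb from its 5′ end. Apart from the first, they began 467 kb into the gene of 701 kb. *Pde4d*, a cAMP phosphodiesterase gene, held 8 members of 5.17- to 13.3-fold, all in intron 1 of the transcript with the longest coding sequence and between 749 and 1236 kb into the gene of 1504 kb. *Snx29*, a sorting nexin gene, held 7, including one of 24.8-fold and one of 17.4-fold with a 4-base-gap pair. *Auts2*, a nuclear regulator of neural development, held 7 of 7.13- to 18.7-fold, and the strongest of them lay 0.23 kb from a Foxa2 peak. *Macrod2* and *Asic2*, an acid-sensing ion channel gene, each held 7, *Etl4* (also known as *Skt*, a gene of the intervertebral disc) 6 of up to 21.3-fold, *Tenm4*, a teneurin gene, 6, and *Gm37240* 6.

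**Figure D4:**
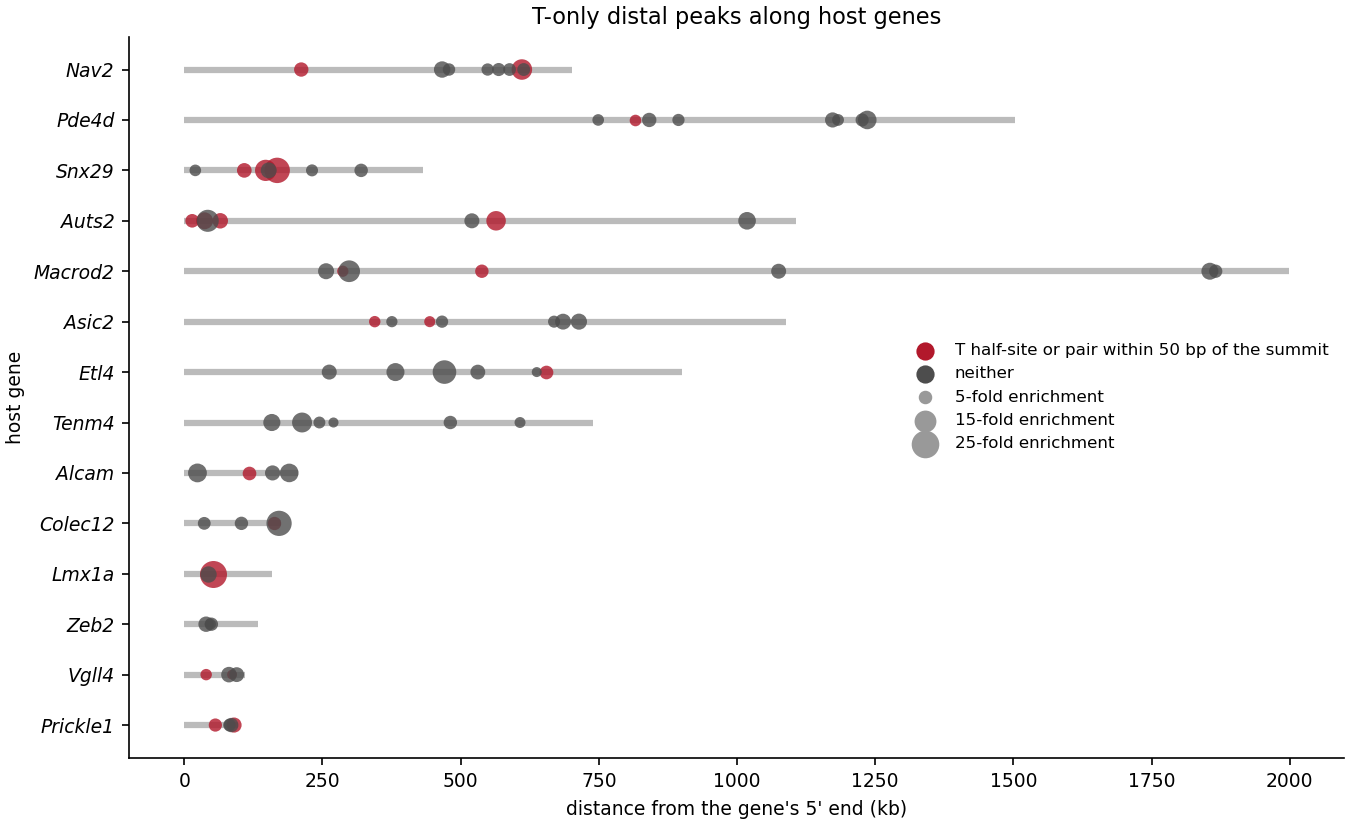
Members along 14 host genes, drawn to scale from the 5′ end (in kb, grey bar for the GENCODE gene body). Circle size gives the fold enrichment and red marks a T-box word or pair within 50 bp of the summit. The members of *Pde4d* and all but 1 of *Nav2* lie far from the 5′ end, and the 3 of *Zeb2* lie within 9.57 kb.

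Tight groups of members were few. Another member lay within 10 kb of 138 members (6.44%), and the same held for 146 (5.93%) of the T-only peaks between genes. With gaps of at most 10 kb the members formed 67 runs, of which 63 held 2 members and 4 held 3. The runs of 3 spanned 7.29 kb in *Fbxl17*, an F-box protein gene, 8.38 kb in *Prickle1*, a planar cell polarity gene, 9.57 kb in *Zeb2*, a zinc finger factor of epithelial-mesenchymal transition, and 14.0 kb in *Vgll4*, a TEAD cofactor gene. The shortest run of 2, over 0.762 kb, was in *Ebf1*, a helix-loop-helix factor gene with 5 members that was below 1 FPKM in all 9 libraries. In the *Fbxl17* run the fold enrichment was 7.02, 11.9 and 8.06.

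RNA levels were given for 1560 hosts (97.1%), of which 1557 distinct genes were used. In NotoPdiff cells 1108 of them (71.2%) reached 1 FPKM, with a median of 4.52 FPKM. Genes that could hold a member and held none reached 1 FPKM in 58.4%, with a median of 2.74 FPKM, and all genes of the table in 49.5%. Hosts had the larger share in 6 of 7 length classes, for instance 59.7% against 29.7% above 400 kb. In the other libraries between 55.2% (MPs, E8.5) and 70.6% (trunk notochord, E8.5) of hosts reached 1 FPKM. The remaining hosts were below this level although T had a peak inside them. In bulk samples, fewer cells that express a gene and less RNA per cell cannot be told apart.

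Hosts were more often higher in notochord progenitors than other genes were. A difference of at least 3-fold, computed as the log2 ratio after adding 1 to each FPKM value, was required at both E8.5 and E9.5. By this measure 61 hosts (3.92%, 3.06 to 5.00) were higher in NotoPs than in MPs, against 1.31% of all genes, 1.56% of the genes that could hold a member and 1.31% of those that held none. The share was 2.75% (1.97 to 3.84) of hosts with 1 member, 6.03% with 2 and 11.0% (6.68 to 17.7) with 3 or more. These groups were not split by gene length, and the genes with most members were large. Over length classes, the share of hosts ran from 0% up to 10 kb of distal body to 5.56% at 200 to 400 kb. Number of members and length were thus not told apart. Hosts of T peaks shared with Foxa2 had 5.60% and hosts of Foxa2-only peaks 2.36%. The lists overlap, since 1050 hosts (65.4% of the hosts and 24.2% of the 4333 hosts of Foxa2-only peaks) hold both kinds. Of the 61 hosts, 45 also held a Foxa2-only peak and 22 a shared T peak. A shared T peak was held by 246 of all hosts (15.3%), a smaller share than among the 61. In 29 of the 61 the MP library of E8.5 listed the gene at 0, and 10 were at 0 in MPs at E9.5. At E9.5 alone, 97 hosts (6.23%) were higher in NotoPs, compared with 2.63% of all genes. Higher levels in MPs at both stages were found for 5 hosts (0.321%, 0.137 to 0.750), against 0.238% of all genes and 0.2% of those that could hold a member.

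In culture, hosts exceeded the full background in both directions, though not the other genes of every length class. NotoPdiff exceeded MPdiff cells by 3-fold in 80 hosts (5.14%, 4.15 to 6.35), against 1.55% of all genes and 1.89% of those that could hold a member. The share was 4.09%, 8.19% and 9.45% for hosts with 1, 2 and at least 3 members, again not split by gene length. MPdiff exceeded NotoPdiff cells in 19 hosts (1.22%, 0.783 to 1.90), against 0.442% and 0.419%, but with a pseudocount of 0.1 FPKM the shares were 3.08% of hosts and 2.79% of all genes. Of the 61 hosts higher in NotoPs, 57 were higher in NotoPdiff than in MPdiff cells and 25 of these by 3-fold (41.0%), while 3 were lower and 0 by 3-fold. Among all 314 genes higher in NotoPs, 34.4% passed 3-fold in culture. The median log2 difference in culture was 1.29 for the 61 hosts and 1.11 for the 314 genes.

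Ranked by the smaller of the differences at the 2 stages, *Lmx1a* came first, although *Ndrg1* had a larger one at E8.5 and *Frem2* at E9.5. NotoPs had 45.2 FPKM (E8.5) and 42.8 FPKM (E9.5), MPs of both stages were listed at 0, and the trunk notochord had 28.3 and 103 FPKM. In culture it was at 9.31 FPKM in NotoPdiff and at 0.0130 in MPdiff and 0.0859 in NMPdiff cells. Its 2 members lie in intron 3, 42.4 and 51.6 kb from the 5′ end, with 10.3- and 28.0-fold enrichment, and the nearest Foxa2 peaks are 38.0 and 47.2 kb from them.

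*Moxd1*, a gene for a copper-dependent monooxygenase, was at 22.3 and 19.2 FPKM in NotoPs of E8.5 and E9.5, listed at 0 in MPs, at 35.7 and 33.9 in the trunk and at 12.7 in NotoPdiff against 0.494 in MPdiff cells. Its 2 members form a run of 2.21 kb at 7.26- and 7.71-fold. *Alcam*, a cell adhesion molecule of the immunoglobulin family, was at 43.5 and 57.5 FPKM in NotoPs, 1.57 and 1.75 in MPs, and 92.3 and 239 in the trunk. It was at 18.6 FPKM in NotoPdiff and 1.75 in MPdiff cells. Its 4 members, of 7.14- to 13.6-fold, spread from 23.9 to 190 kb from the 5′ end, and the weakest of them holds a 4-base-gap pair. All 3 genes thus had their low values in the MP and MPdiff libraries, without overlap with the NotoP, trunk and NotoPdiff libraries.

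Secreted guidance and matrix proteins followed. *Slit2*, a ligand of Robo receptors, was at 119 and 141 FPKM in NotoPs, 2.15 and 8.45 in MPs, 175 and 398 in the trunk, and 43.4 in NotoPdiff against 4.90 in MPdiff cells. *Frem2*, a basement membrane protein, was at 113 and 94.5 FPKM in NotoPs, 6.94 and 0.852 in MPs, 48.4 and 74.9 in the trunk, and 45.1 against 6.39 in culture. *Sema3e*, a secreted semaphorin, was at 34.8 and 23.5 FPKM in NotoPs, 0 and 0.866 in MPs, and 15.8 against 0.969 in culture. Each of these hosts held a single member, of 6.34-, 4.87- and 5.59-fold, below the median of all members.

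Of the other hosts with the largest differences, *Wnt3*, a Wnt ligand gene of the primitive streak, was at 10.3 and 20.9 FPKM in NotoPs, at 0 and 0.294 in MPs, but also at 11.5 in NMPdiff cells and at 0 and 1.53 in the trunk. *Ndrg1*, a stress-responsive gene, was likewise lower in the trunk (2.28 and 3.29 FPKM) than in NotoPs (72.1 and 15.6). *Smox*, which encodes spermine oxidase, was at 21.7 and 47.5 FPKM in NotoPs, 0 and 3.93 in MPs, and 24.5 in NotoPdiff against 1.23 in MPdiff cells, the largest difference of any host in culture on this log2 scale. *Nav3*, a relative of *Nav2*, was at 18.8 and 13.0 FPKM in NotoPs and at 0 and 0.588 in MPs. Compared with NotoPs, 12 of the 61 hosts were 3-fold lower and 1 was 3-fold higher in the trunk notochord at both stages. The 61 were chosen for high NotoP levels, and the same counts were not made for all 314 genes higher in NotoPs. These 2 counts are therefore a description and not a result about the hosts.

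**Figure D5:**
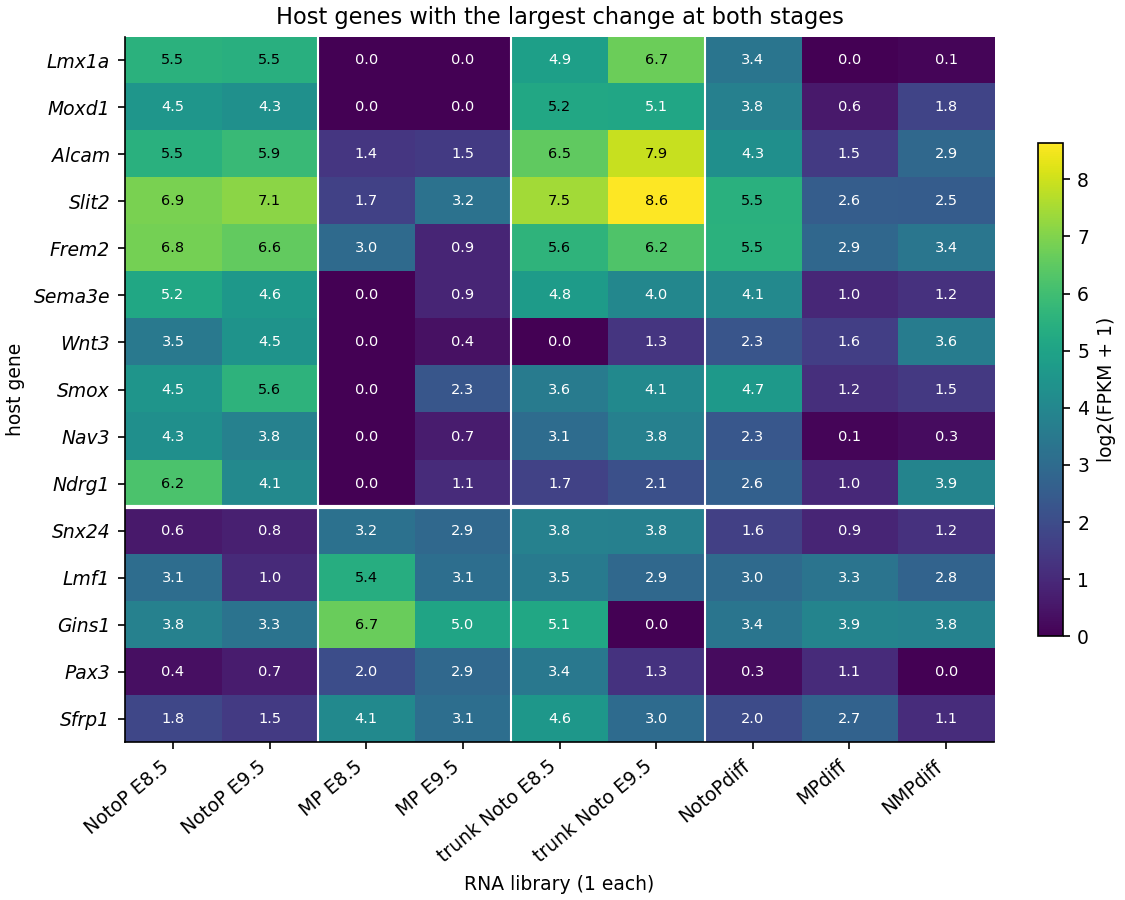
log2(FPKM + 1) of the 10 hosts with the largest difference in favour of NotoPs, ranked by the smaller of both stages (above the white line) and the 5 hosts higher in MPs (below), in each of the 9 RNA libraries. Each cell is 1 library. The first 10 are lower in both MP libraries than in both NotoP libraries, and *Wnt3* and *Ndrg1* differ from the others in being high in NMPdiff and low in the trunk notochord.

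The 5 hosts higher in MPs were *Snx24*, *Lmf1*, *Gins1*, *Pax3* and *Sfrp1*. *Gins1*, a DNA replication gene, had 100.2 and 31.97 FPKM in MPs, where NotoPs had 13.0 and 8.70. *Pax3*, a factor of the dorsal neural tube and the somites, had 3.08 and 6.55 FPKM in MPs, where NotoPs had 0.279 and 0.572. *Sfrp1*, a secreted Wnt antagonist, had 16.03 and 7.74 FPKM against 2.59 and 1.77. *Snx24*, a sorting nexin gene, was at 8.27 and 6.56 against 0.501 and 0.684, and *Lmf1*, a lipase maturation factor, at 40.4 and 7.77 against 7.60 and 1.04. None of the 5 differed 3-fold between NotoPdiff and MPdiff cells. *Snx24* had the opposite order there, with 2.12 FPKM in NotoPdiff and 0.855 in MPdiff. In the trunk notochord *Snx24* was above MPs at both stages, at 12.9 and 12.6 FPKM. *Sfrp1* (22.6 and 7.07) and *Pax3* (9.90 and 1.41) were above MPs in the trunk at E8.5 only. *Lmf1* (10.6 and 6.55) and *Gins1* (34.4 and a listing at 0) were below MPs there.

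In culture, *Tmprss2*, a transmembrane serine protease gene, was at 25.5 FPKM in NotoPdiff and 1.44 in MPdiff cells, and *Ddx58*, an RNA sensor of innate immunity, at 21.7 and 1.29. Among hosts higher in MPdiff, *Hs3st3b1*, a heparan sulphate sulphotransferase gene, was at 21.1 FPKM against 1.90 in NotoPdiff cells. *Unc5c*, a netrin receptor gene, was at 11.8 against 0.717, *Lhfp* at 12.5 against 1.12, and *Nrp1*, a semaphorin and VEGF co-receptor, at 13.9 against 1.54. *Hmga2*, a chromatin architecture gene of progenitor cells, was at 325 against 60.5 FPKM. Between 107 and 299.6 FPKM were measured for *Hmga2* in the 6 embryonic libraries, MPs being highest at both stages.

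Hosts were then counted in lists of genes with known roles, written with earlier results of these data in view. Of 22 notochord genes that could hold a member, 7 were hosts (31.8%), against 9.29% of all genes that could hold one. Of the 7, 5 were 3-fold higher in NotoPs at both stages, where 3.92% of all hosts were. Notochord genes are chosen for their levels in notochord cells, so this contrast is not independent of the list. The 7 hosts included *Lmx1a* and *Ptch1*, the Hedgehog receptor and target, with 2 members of 9.97- and 13.4-fold. *Sox6* with 5 and *Sox5* with 2 members, both Sox factors of the notochord sheath and cartilage, did not pass 3-fold at both stages. *Ptch1* was at 150 and 86.0 FPKM in NotoPs, 12.7 and 23.7 in MPs, and 112 in NotoPdiff against 23.0 in MPdiff cells. *Sox6* was at 9.75 and 7.25 FPKM in NotoPs, 9.71 and 2.27 in MPs, and was highest in the trunk, at 21.6 and 39.8. Of 22 genes of caudal progenitors and paraxial mesoderm, 2 were hosts (9.09%), *Wnt5b*, a Wnt ligand gene, and *Axin2*, a negative regulator and target of Wnt signalling. The median distal body in this list was shorter, 5.45 kb against 26.3 kb in the notochord list, and per length the order was the opposite, with 7.74 members per Mb from 3 members against 5.24 per Mb from 16.

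Among signalling lists, the Wnt pathway had 19 hosts of 63 genes (30.2%) with 6.70 members per Mb, compared with 2.30 per Mb over all genes that could hold one. The density was higher still for housekeeping genes (7.39 per Mb, from 1 member) and neural genes (9.63, from 2). So few members cannot tell whether the Wnt density was particular to its list. Planar polarity genes led the Wnt list. *Prickle1* with 4 members had 59.6 and 72.0 FPKM in NotoPs but 17.8 and 28.2 in MPs, and *Prickle2* with 2 members had 26.2 and 18.6 against 1.01 and 2.84. *Celsr1*, a polarity cadherin gene, had 3 members and *Lgr5*, an R-spondin receptor gene, had 2. The Fgf pathway had 5 of 30 hosts, *Fgfr2*, *Il17rd*, *Spred2* and *Etv5* among them, the middle pair being antagonists of Fgf signalling and *Etv5* an ETS factor target. The Hedgehog pathway had 6 of 22, with *Ptch1*, *Disp1*, needed to release the ligand, *Scube1* and *Scube2*. The Notch pathway had 5 of 25, with *Notch2*, *Maml3*, *Numb* and *Notch1*, and the TGF-beta, BMP and Nodal pathway 8 of 46, with *Tgfbr3*, *Smad3*, *Bmper* and *Tgfbr1*. Of the hosts in these 5 lists, those 3-fold higher in NotoPs at both stages numbered 2 for Wnt, 1 for Hedgehog and 0 for the other 3, and 1 Wnt host, *Sfrp1*, was higher in MPs. The 2 Wnt hosts are 2 of 19, where 3.92% of all hosts were called.

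Among structural lists, 20 of 56 genes of axon and cell guidance (35.7%), 15 of 33 cadherins and catenins (45.5%) and 10 of 52 extracellular matrix and integrin genes (19.2%) were hosts. These genes are long, with a median distal body of 108 to 133 kb, and the members per Mb were 2.43, 2.99 and 1.90, near the value over all genes. Of the guidance hosts, *Sema3d* held 3 members, and *Ephb1*, *Robo2*, *Ephb2* and *Nrp1* were among those with 2. The cadherins *Cdh6* and *Pcdh7* held 4 members each. *Cdh2*, N-cadherin, held 2 and had 225 and 216 FPKM in NotoPs, where MPs had 105 and 139. Of the matrix and integrin genes, *Itga6*, an integrin alpha chain, held 2 members and was at 62.6 FPKM in NotoPdiff against 6.22 in MPdiff cells. *Fbn2*, a fibrillin gene, also held 2. Of the lists of other cell types, 1 of 4 neural genes (*Pax3*), 0 of 6 gut endoderm genes and 0 of 3 blood genes that could hold a member did so, and 1 of 9 housekeeping genes (*Ywhaz*).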

How the data were processed

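The members, gene lists and comparisons were chosen with earlier results of these data known. The authors trimmed the first 5 bases of RNA reads, aligned them to mm10 with TopHat2 2.1.1 and Bowtie 1.2.2 using RefSeq models and strand, removed duplicates by molecular identifiers, and deposited FPKM values from Cufflinks 2.2.1. For ChIP-seq the authors kept uniquely aligned pairs (Bowtie 1.3.1) without duplicates and called peaks with MACS3 3.0.0b1 on each library at a q cutoff of 0.1. No control library was named. The deposited peak lists give the fold enrichment at the summit over the local background, a score derived from q, and −log10 p and −log10 q. The score and −log10 p were not used. Neither kind of file keeps read counts, so no counting error can be given for a gene's level. The authors list mapped reads for the embryonic RNA libraries, of which the MP library of E8.5 had the fewest. Depth of the cultured RNA and ChIP libraries is unknown here. The study's removal of artefact regions was not applied. Columns left out of the RNA table numbered 0.

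Each sample's group came from its title in the labels. Peaks were placed by their summit on GENCODE vM21 and overlaps were taken at 1 bp. Hosts were matched to the RNA table by symbol, 52 of them by a synonym, and 46 had no value. Words were searched on both strands of the GRCm38.p6 (mm10) sequence. Levels were compared as log2(FPKM + 1), a scale that understates changes of low genes. RefSeq bodies served as an alternative. The steps were tested on simulated peaks and FPKM values. Genes named are the 10 hosts with most members, the hosts of the 10 strongest members, the 10 largest differences in each direction by the smaller of both stages, the 5 largest in culture, the 5 runs with most members (ties by shortest span) and up to 4 hosts of each gene list (ties by enrichment). The results of 1 list and 1 excerpt are not reported here. Others, and the excerpts with pairs, were chosen after their values were seen. The scripts ran under Python 3.11.15 with pandas 2.3.3, numpy 2.4.6, pysam 0.24.0 and, for figures, matplotlib 3.10.9. With 1 library per group no test was made.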

Additional observations from a re-analysis of the deposited data

Results flagged for a closer look

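For 3 hosts, the log2 difference between NotoPs and MPs passed 3-fold in opposite directions at the 2 stages, as it did for 58 genes of the whole table. *Arhgap24*, a gene with 4 members, gave 1.61 at E8.5 and -2.43 at E9.5. Its levels were 13.6 FPKM in NotoPs and 3.78 in MPs at E8.5, and 4.70 and 29.8 at E9.5. *Sec11c*, a signal peptidase gene, gave 2.56 and -2.25, with 4.90 FPKM and a listing at 0 at E8.5, and 0.836 and 7.72 FPKM at E9.5. *Ssbp2*, a single-stranded DNA-binding protein gene, gave 1.61 and -2.08, with 3.26 and 0.395 FPKM at E8.5, and 0.879 and 6.96 at E9.5. With 1 library per stage and cell type the difference between stages was not tested.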

How the results depend on the processing

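Of 64 alternatives, 44 left their result within the limit set for it, which for counts is 1.5 times, and 20 did not. Hosts higher in NotoPs at both stages (61) became 137 at 2-fold, 97 at E9.5 alone and 151 with a pseudocount of 0.1 FPKM. Those higher in MPs (5) became 29, 27 and 17, and 8 with a pseudocount of 0.5 FPKM. Hosts higher in NotoPdiff (80) became 190 at 2-fold and 215 with a pseudocount of 0.1, and those higher in MPdiff (19) became 46 and 48. With a pseudocount of 0.1, all genes of the table gave 3.98% and hosts 9.70% for NotoPs, 0.809% and 1.09% for MPs, 6.66% and 13.8% for NotoPdiff, and 2.79% and 3.08% for MPdiff, so that the excess for MPdiff was nearly lost. At 5 FPKM, 48.0% of hosts were expressed in NotoPdiff cells. With the 5′ ends of all annotated genes, 29.6% of members were nearest to their host. The pair with a 4-base gap was found in 9.90% within 100 bp and 6.58% within 25 bp of the summit, and the 8-base word in 4.30% and 2.19%. The shorter word AGGTGT was found in 12.6% within 50 bp. Neighbours within 25 kb and 5 kb were found for 15.6% and 2.24% of members. The alternatives for pairs and for other gene models were chosen after seeing the data. No paired analysis was possible because each group has 1 library. For the same reason no replicate could be left out. The E8.5 MP library lists the most genes at 0, and a listing at 0 does not show that a gene was silent.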

Other observations

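Members in exons were few. The most enriched ones in UTRs were in *Colec12* (24.4-fold), a scavenger receptor gene with 4 members in all, *Lrrc8c* (22.1-fold), which encodes a subunit of volume-regulated anion channels, and *Slc22a2* (18.4-fold), an organic cation transporter gene. In coding sequence, the most enriched were in *Ints6l* (12.0-fold), *Rab3ip* (10.4-fold), an activator of Rab GTPases, and *Npnt* (10.2-fold), which encodes nephronectin, a matrix ligand of integrins. The UTR member of *Colec12* lies outside the RefSeq gene body, which holds 3 of the 4 members. *Colec12* was at 39.2 and 64.6 FPKM in NotoPs and at 5.47 and 11.4 FPKM in MPs of E8.5 and E9.5. These genes were chosen after their values were seen.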
